A study of Rattus norvegicus with 10 samples.

Results

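Proteasome genes were described in liver RNA of 10 rats, all males of the outbred Sprague-Dawley stock, measured on Affymetrix expression arrays that read each gene through 1 or more probe sets. The groups were 5 control animals and 5 animals given a short-term exposure to effluent of bulk drug factories. The labels state no dose, route, duration or age. Each array is 1 animal, so p-values measure the spread between these animals. Genes were chosen by name, from symbols that start with Psma, Psmb, Psmc, Psmd, Psme, Psmf or Psmg and a digit, on probe sets that name a single gene. The immunoproteasome genes Psmb8, Psmb9, Psmb10, Psme1 and Psme2 were left out. This gave 41 of 14217 genes, of which 39 code for a subunit, an activator, an inhibitor or an assembly factor of the proteasome. Psmc3ip, a factor of meiotic recombination, and Psme3ip1 carry the name of a subunit that they bind and are given apart. Psmb6 and Psme3 lie only on probe sets that name several genes and were not analysed here. A gene with several probe sets is given by the one with the highest mean over the 10 animals. No filter on low values was used, and all 41 means lay above that of the median probe set, 5.47 on the log2 scale.

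The proteasome is the large protease that degrades proteins tagged with ubiquitin. Its 20S core is a barrel of outer alpha rings and inner beta rings, and 3 of the beta subunits cut proteins. The 19S cap recognises the ubiquitin chain, removes it, and feeds the unfolded protein into the core through a ring of ATPases. In cells whose proteasomes are blocked, the transcription factor NRF1, the product of Nfe2l1, switches on core and cap genes together through antioxidant response elements in their promoters.

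Core and cap genes were nearly all slightly lower in exposed livers, and none passed the test. Of 30 core and cap genes, 29 had a lower mean in exposed animals and only Psma5 a higher one, by 0.02 on the log2 scale, with a median difference of -0.044. These genes varied together between animals, so the 30 are not separate observations. Their average deviation per animal was -0.040 to 0.12 in controls and -0.050 to 0.018 in exposed animals, so the groups overlapped. The averages differed by -0.053, with a pooled SD of 0.051. Including activators and assembly factors, 34 of 39 genes were lower. Against this stands a lower value for 48.0% of all probe sets, for 50.9% of all genes and for 64.7% of the genes that, like every core and cap gene, had a mean above 8. With the deposited values quantile-normalized again, 25 of 30 core and cap genes were lower, and 49.2% of the genes with a mean above 8. The count also moved with control animal 1. Without it, 22 of 30 core and cap genes were lower, with a median of -0.014, and 61.4% of the genes with a mean above 8. In bulk liver, fewer cells of a type and less RNA per cell cannot be told apart.

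With limma's moderated test, adjusted by Benjamini-Hochberg over 31042 probe sets at a threshold of 0.05, 0 of 39 genes passed. The background was the same, 0% of all probe sets, and the limma adjusted p of the 39 genes lay between 0.879 and 0.993. At an unadjusted limma p under 0.05 there were 2 of 39 genes, Psmd1 and Psme4, beside 5.46% of all probe sets. Both were lower, beside 2.39% of all probe sets called in that direction. Control and exposed animals did not overlap for 1 of 39 genes, Psme4, beside 0.892% of all probe sets. Counts of 1 or 2 genes are too small to be set apart from these shares. The 95% interval of the difference lay within 1.2-fold either way for 36 of 39 genes and within 1.4-fold for all 39, with bounds from -0.42 to 0.21 on the log2 scale.

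**Figure D1:**
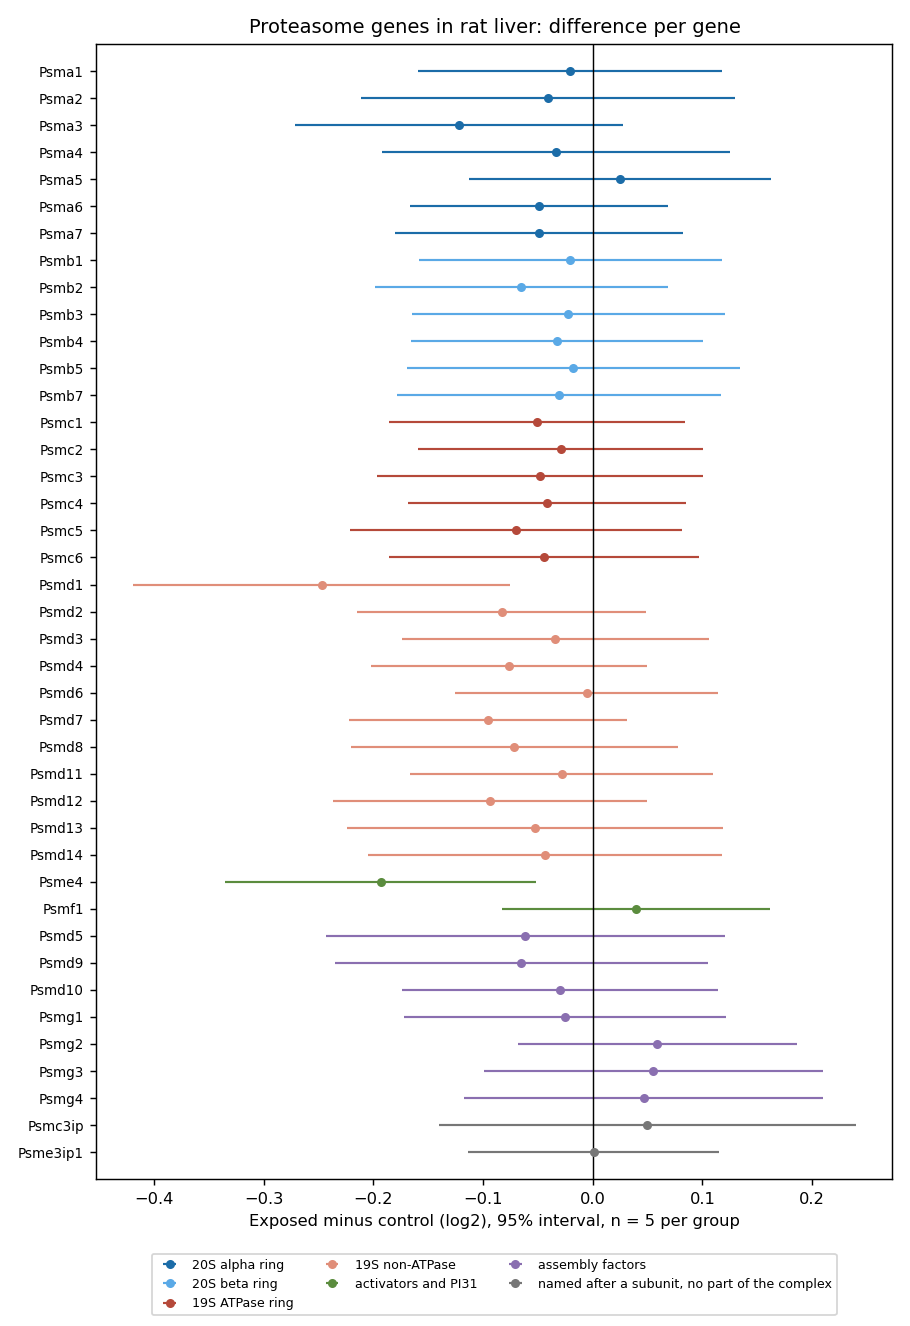
Difference between exposed and control livers for each proteasome gene on the log2 scale, points for the limma estimate and bars for its 95% interval (n = 5 per group), coloured by role. Core and cap points lie left of 0 except Psma5, and 2 intervals, those of Psmd1 and Psme4, do not reach 0.

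Promoter sequences were taken from a RefSeq table for rat assembly GRCr8, which held windows of 300 bases, 250 before and 50 after the start, for 35 of the 39 genes. The core letters of an antioxidant response element, TGACNNNGC on either strand, stood in 7 of 35 windows (20%), those of Psma3, Psmb2, Psmb5, Psmd1, Psmd3, Psmd9 and Psme4. Among all 33469 windows of the table, 12.1% held them. The letters CCAAT, bound by the factor NF-Y, stood in 18 of 35 windows (51.4%) and in 37.5% of all windows. By role, CCAAT stood in 5 of 6 alpha ring windows, 4 of 6 beta ring windows, 2 of 6 ATPase windows and 3 of 8 windows of other cap genes. These matches are descriptions of letters, not of binding. Windows of 4 genes are shown 5′ to 3′ along the gene, with TGACNNNGC or its reverse complement in capitals. Psmb5 is a catalytic subunit, Psmb2 is the gene that varied most closely with the other core and cap genes, and Psmd1 and Psme4 had the smallest p.
Psmb2, chr5:144254808-144255107, plus strand: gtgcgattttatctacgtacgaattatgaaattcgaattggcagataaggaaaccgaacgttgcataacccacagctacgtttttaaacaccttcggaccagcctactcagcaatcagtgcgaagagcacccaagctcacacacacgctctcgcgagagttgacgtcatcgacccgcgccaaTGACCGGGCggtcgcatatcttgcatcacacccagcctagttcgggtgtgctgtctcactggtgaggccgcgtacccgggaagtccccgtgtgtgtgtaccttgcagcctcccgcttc
Psmb5, chr15:32047330-32047629, minus strand: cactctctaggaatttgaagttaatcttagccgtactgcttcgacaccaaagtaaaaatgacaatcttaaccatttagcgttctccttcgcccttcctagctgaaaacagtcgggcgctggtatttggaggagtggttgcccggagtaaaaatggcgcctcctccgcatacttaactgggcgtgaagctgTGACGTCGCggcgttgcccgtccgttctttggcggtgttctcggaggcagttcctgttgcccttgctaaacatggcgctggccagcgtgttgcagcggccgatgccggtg
Psmd1, chr9:94157721-94158020, plus strand: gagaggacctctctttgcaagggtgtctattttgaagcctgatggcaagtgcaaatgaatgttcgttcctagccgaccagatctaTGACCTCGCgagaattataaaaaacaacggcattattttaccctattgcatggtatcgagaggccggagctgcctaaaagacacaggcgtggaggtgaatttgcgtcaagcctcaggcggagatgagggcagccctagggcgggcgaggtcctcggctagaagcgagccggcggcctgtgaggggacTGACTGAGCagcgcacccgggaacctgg
Psme4, chr14:108706393-108706692, plus strand: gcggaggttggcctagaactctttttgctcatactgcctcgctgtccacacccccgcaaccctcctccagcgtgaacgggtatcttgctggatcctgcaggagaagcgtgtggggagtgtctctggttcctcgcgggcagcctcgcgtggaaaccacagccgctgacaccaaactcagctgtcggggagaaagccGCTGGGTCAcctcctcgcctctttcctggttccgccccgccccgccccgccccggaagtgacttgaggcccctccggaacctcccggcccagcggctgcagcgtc
In Psmb2, Psmb5 and Psme4 the first matching base lay 68, 60 and 55 bases before the start. Psmd1 held 2 matches, the first 165 bases before the start and the second after it. The match of Psmd3, whose window is not shown, also lay after the start. The match of Psme4 was on the opposite strand to the gene. No CCAAT was found in the windows of Psmb5, Psmd1 and Psme4, and 2 copies were found in that of Psmb2.

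The alpha ring, the gate of the core, was measured for 7 of 7 genes, and 6 were lower in exposed animals, with a median difference of -0.041, or -0.0068 without control animal 1 and -0.014 without exposed animal 3. Psma3 and Psma6 had the smallest p of the ring. For Psma3, control animals read 8.34, 8.31, 8.34, 8.46 and 8.55 and exposed animals 8.18, 8.25, 8.44, 8.25 and 8.25. Exposed animal 3 lay inside the control range and the other exposed animals lay under every control. The difference was -0.12 ± 0.07 (SE), a change of -8.12%, with a limma adjusted p of 0.880. Psma6 read 12.19, 12.10, 12.08, 12.03 and 12.11 in controls and 12.02, 12.10, 11.98, 12.07 and 12.08 in exposed animals. Control animal 1 was the highest and exposed animal 3 the lowest, and the others overlapped. Its difference was -0.049 ± 0.054 (SE), with a limma adjusted p of 0.933. Psma1, Psma2, Psma4, Psma5 and Psma7 differed by -0.049 to 0.025.

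The beta ring, which holds the protease sites, was measured for 6 of 7 genes, and all 6 were lower in exposed animals, by 0.018 to 0.065 on the log2 scale. Psmb5, which carries the chymotrypsin-like site, read 11.47, 11.24, 11.18, 11.17 and 11.18 in controls and 11.18, 11.26, 11.14, 11.26 and 11.31 in exposed animals. Control animal 1 was the highest of all, and 3 exposed animals lay above the other 4 controls. The difference was -0.018 ± 0.070 (SE), with a 95% interval of -0.17 to 0.13 and a limma adjusted p of 0.982. Psmb7, which carries the trypsin-like site, read 10.87, 10.67, 10.75, 10.61 and 10.65 in controls and 10.54, 10.76, 10.64, 10.76 and 10.69 in exposed animals. Control animal 1 was again the highest and exposed animal 1 the lowest, and the difference of -0.030 ± 0.068 (SE) had limma's adjusted p at 0.967.

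Psmb2 and Psmb4, structural subunits without a protease site, had the smallest p of the beta ring. Psmb2 read 11.19, 11.15, 11.01, 10.98 and 10.98 in controls and 11.03, 11.05, 10.98, 10.96 and 10.97 in exposed animals. Control animals 1 and 2 stood above all exposed animals, and the other controls lay among them. The difference was -0.065 ± 0.061 (SE), with a limma adjusted p of 0.923. Psmb4 read 11.35, 11.15, 11.22, 11.14 and 11.11 in controls and 11.16, 11.16, 11.08, 11.19 and 11.22 in exposed animals. Apart from control animal 1 the groups covered much the same range, with a difference of -0.032 ± 0.061 (SE) and a limma adjusted p of 0.961. Psmb1 and Psmb3 differed by -0.020 and -0.022. Without control animal 1 the beta ring's median went from -0.026 to 0.0096, and the differences of Psmb4, Psmb5 and Psmb7 went to 0.0075, 0.038 and 0.0097.

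In the immunoproteasome, Psmb8 replaces Psmb5 and Psmb10 replaces Psmb7. The log2 value of the immunosubunit minus that of the constitutive subunit was compared between groups, as a change in the balance of a pair and not as a ratio of amounts. Psmb8 minus Psmb5 was -1.84, -1.54, -1.05, -1.27 and -1.63 in controls and -1.03, -1.54, -1.30, -1.61 and -1.26 in exposed animals. The groups overlapped widely, with a difference of 0.12 (95% interval -0.28 to 0.52). The exact permutation p was 0.492 (two-sided, 252 splits, smallest possible 0.00794), or 0.754 adjusted over both pairs. For Psmb10 minus Psmb7 the difference was 0.032 (95% interval -0.17 to 0.24), with an exact permutation p of 0.754, also 0.754 after adjustment. Control animals lay between -2.50 and -2.35 and exposed animals between -2.58 and -2.15, so that exposed animals reached beyond controls on both sides. Without exposed animal 1 this difference was -0.029. Psmb9 minus Psmb6 was not analysed here.

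The ATPase ring unfolds substrates and opens the gate of the core. It was measured for 6 of 6 genes, which were all lower in exposed animals, with a median of -0.046 and a range of -0.070 to -0.029. Without control animal 1 the median was -0.016. Psmc5 read 9.87, 9.81, 9.57, 9.59 and 9.65 in controls and 9.69, 9.62, 9.60, 9.55 and 9.68 in exposed animals. Control animals 1 and 2 stood above all others, and the remaining controls lay among the exposed animals. The difference was -0.070 ± 0.070 (SE), with a limma adjusted p of 0.928. Psmc1 read 9.67, 9.54, 9.48, 9.40 and 9.53 in controls and 9.56, 9.44, 9.42, 9.47 and 9.45 in exposed animals. Control animal 1 was the highest and control animal 4 the lowest, and the difference of -0.051 ± 0.062 (SE) had limma's adjusted p at 0.939. Psmc2 read 11.37, 11.36, 11.23, 11.33 and 11.31 in controls and 11.41, 11.26, 11.31, 11.17 and 11.31 in exposed animals. Exposed animals held both the highest and the lowest value, and the difference was -0.029 ± 0.060 (SE) with a limma adjusted p of 0.963. Without exposed animal 4 it was 0.0013. Psmc3, Psmc4 and Psmc6 differed by -0.048, -0.042 and -0.044.

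The other cap genes code for the scaffold, the ubiquitin receptors and the deubiquitinase of the lid. Those with a Psm name were measured for 11 of 11 genes, all lower in exposed animals, with a median of -0.072 and a range of -0.25 to -0.0054. The median was -0.046 without control animal 1. Adrm1, a ubiquitin receptor of the cap without a Psm name, is not among them and differed by 0.037. Psmd1, a large scaffold subunit at the base of the cap, had the largest difference of all 39 genes. Control animals read 8.76, 8.72, 8.57, 8.67 and 8.86 and exposed animals 8.59, 8.61, 8.51, 8.32 and 8.31. Exposed animals 4 and 5 were the lowest, and the groups overlapped through control animal 3 and exposed animals 1 and 2. The means were 8.72 ± 0.11 and 8.47 ± 0.14 (SD, n = 5 each). The difference was -0.25 (95% interval -0.42 to -0.08), a change of -15.8%, with a limma adjusted p of 0.879. It lay between -0.28 and -0.21 under every alternative tried.

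Psmd7 is the lid subunit that pairs with the deubiquitinase Psmd14. It read 9.71, 9.78, 9.68, 9.73 and 9.68 in controls and 9.67, 9.61, 9.74, 9.56 and 9.52 in exposed animals. Exposed animal 3 lay within the controls and the other 4 lay under them, with a difference of -0.095 ± 0.059 (SE) and a limma adjusted p of 0.885. The second probe set of Psmd7 gave a like difference of -0.084. Psmd14 read 10.37, 10.21, 10.11, 10.00 and 10.13 in controls and 10.25, 10.14, 10.04, 10.07 and 10.10 in exposed animals. Controls covered the whole exposed range, and the difference was -0.043 ± 0.074 (SE) with a limma adjusted p of 0.957. Without control animal 1 it was 0.0085. Psmd4, a receptor for ubiquitin chains, read 9.25, 9.26, 9.17, 9.30 and 9.20 in controls and 9.27, 9.08, 9.20, 9.10 and 9.15 in exposed animals. Exposed animals 2, 4 and 5 lay under every control, and the difference was -0.076 ± 0.058 (SE) with a limma adjusted p of 0.905. The remaining 7 genes of this group, Psmd2, Psmd3, Psmd6, Psmd8, Psmd11, Psmd12 and Psmd13, differed by -0.094 to -0.0054.

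**Figure D2:**
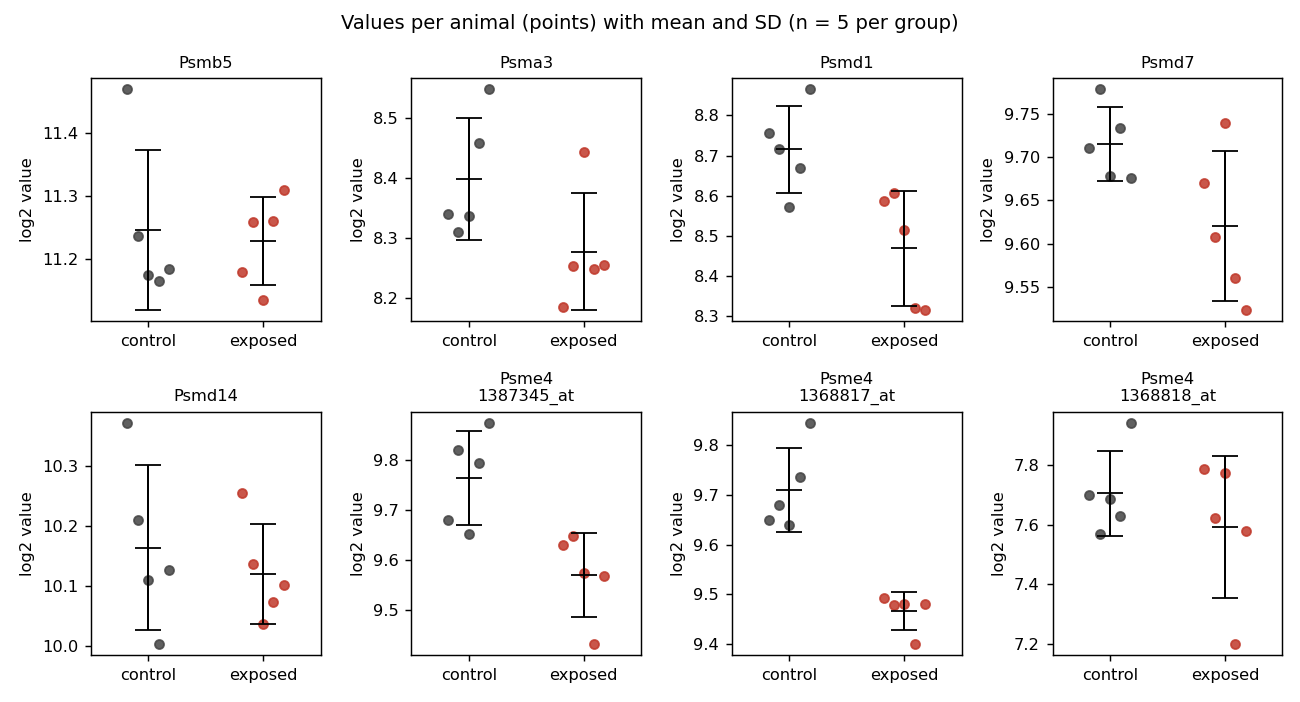
Log2 values in each animal (points) with the group mean and SD (bars, n = 5 per group) for Psmb5, Psma3, Psmd1, Psmd7, Psmd14 and the 3 probe sets of Psme4. The groups separate without overlap on the first and second Psme4 probe sets and overlap in the other panels, and each axis has its own range and does not start at 0.

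Psme4 codes for a cap that activates the core without ubiquitin and has been tied to the breakdown of histones. On the probe set with the highest mean, controls read 9.68, 9.82, 9.65, 9.79 and 9.87 and exposed animals 9.63, 9.65, 9.57, 9.43 and 9.57. The lowest control and the highest exposed animal, at 9.651 and 9.648, nearly touched. The difference was -0.19 (95% interval -0.34 to -0.05), a change of -12.5%, with a limma adjusted p of 0.879, and it lay between -0.22 and -0.16 under every alternative tried. The second probe set separated the groups further, with controls at 9.65, 9.68, 9.64, 9.74 and 9.85 and exposed animals at 9.49, 9.48, 9.48, 9.40 and 9.48. Its difference was -0.24 (95% interval -0.37 to -0.12), with an unadjusted limma p of 0.00106 and an adjusted p of 0.879. The third probe set, dimmer and more variable, differed by -0.11 with overlapping groups. All 3 were lower in exposed livers.

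Psmf1, an inhibitor of the core that also acts in proteasome transport, went the other way. It read 10.11, 10.09, 9.95, 9.98 and 10.07 in controls and 10.16, 10.07, 10.06, 10.03 and 10.06 in exposed animals. Exposed animal 1 was the highest and controls 3 and 4 were the lowest. The difference was 0.040 ± 0.056 (SE), with a limma adjusted p of 0.947.

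Assembly factors build the complex and leave it. All 7 genes with a Psm name were measured, and they were split, with 4 lower, 3 higher and a median of -0.025. That median was 0.012 without control animal 1, 0.0069 under quantile normalization and 0.0052 with the mean of each gene's probe sets. The chaperones of the ATPase base, Psmd5, Psmd9 and Psmd10, were lower. Psmd5 read 9.23, 9.32, 8.97, 9.20 and 9.05 in controls and 9.24, 8.99, 9.22, 8.96 and 9.05 in exposed animals. Both groups covered nearly the same range, with a difference of -0.061 ± 0.084 (SE) and a limma adjusted p of 0.945. Psmd9 read 8.91, 8.85, 8.84, 8.61 and 8.75 in controls and 8.72, 8.87, 8.85, 8.65 and 8.56 in exposed animals. Its groups overlapped too, and its difference was -0.065 ± 0.078 (SE) and a limma adjusted p of 0.938. Psmd10, known as gankyrin and studied in liver cancer, read 8.50, 8.46, 8.46, 8.33 and 8.30 in controls and 8.50, 8.46, 8.29, 8.32 and 8.32 in exposed animals. Each group had both high and low animals, with a difference of -0.030 ± 0.066 (SE) and a limma adjusted p of 0.967. Quantile normalization turned its sign, to 0.0069.

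Among the chaperones of the alpha ring, Psmg2, Psmg3 and Psmg4 had higher means in exposed animals, by 0.059, 0.055 and 0.046, and Psmg1 a lower one, by 0.025 on the log2 scale. Psmg2 had the smallest p of the assembly factors and read 8.08, 7.85, 8.01, 7.94 and 7.98 in controls and 8.05, 8.08, 7.98, 8.05 and 7.99 in exposed animals. All exposed animals lay inside the control range. The difference was 0.059 ± 0.059 (SE), with a limma adjusted p of 0.927. Of the genes that only carry a subunit's name, Psme3ip1 differed by 0.00096. Psmc3ip varied most between animals of a group among the 41 genes, at 5.67, 5.65, 5.74, 5.74 and 5.81 in controls and 5.76, 5.78, 5.45, 5.88 and 5.98 in exposed animals. Exposed animals held its lowest and highest values, with a difference of 0.050 ± 0.088 (SE) and a limma adjusted p of 0.959. Without exposed animal 5 it was -0.0015.

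Further probe sets existed for 8 of the 41 genes, 13 in all, and 6 had the sign of the probe set used while 7 had the opposite sign. The 5 that were dimmer than the median probe set were all higher in exposed animals, and of the 8 brighter ones 6 were lower. Opposite signs occurred for both further probe sets of Psmb5 (0.10 and 0.071), that of Psmc4 (0.12), both of Psmc6 (0.047 and 0.12), 1 of 2 of Psmd11 (0.13) and that of Psmd9 (0.076). A probe set of Psmd14 with lower values read 7.24 to 7.56 in controls and 7.07 to 7.33 in exposed animals. Its difference was -0.19, with an unadjusted limma p of 0.0311 and an adjusted p of 0.879. Together with the second one of Psme4, 2 of 13 further probe sets had an unadjusted limma p under 0.05, beside 5.46% of all probe sets. The RefSeq table also lists 35 pseudogenes named after 15 of the genes, 7 of them after Psmb3 and 5 after Psma6, and their part in these signals was not tested.

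**Figure D3:**
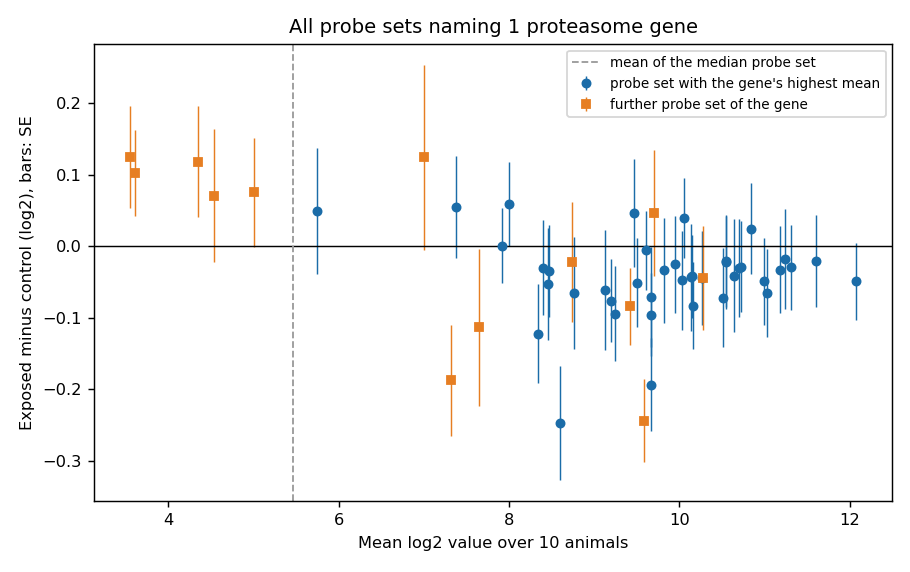
Exposed minus control (log2, bars show the SE) against the mean log2 value over 10 animals for all 54 probe sets that name 1 of the genes, circles for the probe set used per gene and squares for further ones. The 5 squares left of the dashed line, dimmer than the median probe set, lie above 0, and most points at means above 8 lie under 0.

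Proteasome genes varied little between animals of a group. The within-group SD was under the all-gene median of 0.127 for 38 of 39 genes, and under the median of genes with a mean above 8, 0.115, for 33 of 39. Core and cap genes had a median SD of 0.086, from 0.053 for Psma6 to 0.126 for Psmd1. They also varied together. With group means removed, the median Pearson correlation over 10 animals was 0.37 for the 435 pairs of core and cap genes, and 77.2% of pairs were above 0. Over all pairs of genes the median was 0.00030, and over genes with a mean above 8 it was 0.033. These correlations are descriptions, since all genes share the same 10 arrays and their normalization.

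Within each ring the median correlation was above that of core genes against cap genes. Medians between single rings were not computed, and several of the closest single pairs crossed groups, such as Psmc1 with Psmd14. Pairs above 0 were 100% in the beta ring, 71.4% in the alpha ring and 73.3% in the ATPase ring. All core and cap pairs gave 77.2%. The median correlation was 0.71 within the beta ring, 0.62 within the alpha ring, 0.53 within the ATPase ring, 0.31 among the other cap genes and 0.18 among assembly factors. Core genes against cap genes gave 0.30. Psmb2 and Psmd14 had the highest median correlation with the other core and cap genes, 0.62 each. The inhibitor gene Psmf1 reached 0.57, like a subunit, whereas the activator gene Psme4 stood at -0.012. Psma3 went against the other core and cap genes at -0.39, and Psmc6 stood at -0.087. The further probe sets of Psmc6 gave 0.0026 and 0.30, so that its value depended on the probe set, and Psma3 has only 1 probe set.

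Of 820 pairs among all 41 genes, the ATPase genes Psmc4 and Psmc5 had the highest correlation, r = 0.96 and Spearman's rho = 0.94 over 10 animals, and r = 0.95 without the 2 animals farthest from the median of Psmc4. Psmc1 and Psmd14 followed at r = 0.96 and rho = 0.89, and r = 0.87 without their 2 farthest animals. These pairs were picked for their values, so no test is given. Some known partners, chosen after their values were seen, differed. Psmg1 and Psmg2, which form a chaperone pair, had r = 0.84, whereas Psmg3 and Psmg4, also a pair, had r = 0.089. Psmd7 and its partner Psmd14 had r = 0.057. Psmd1 and Psme4, the genes with the smallest p, had r = 0.74.

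**Figure D4:**
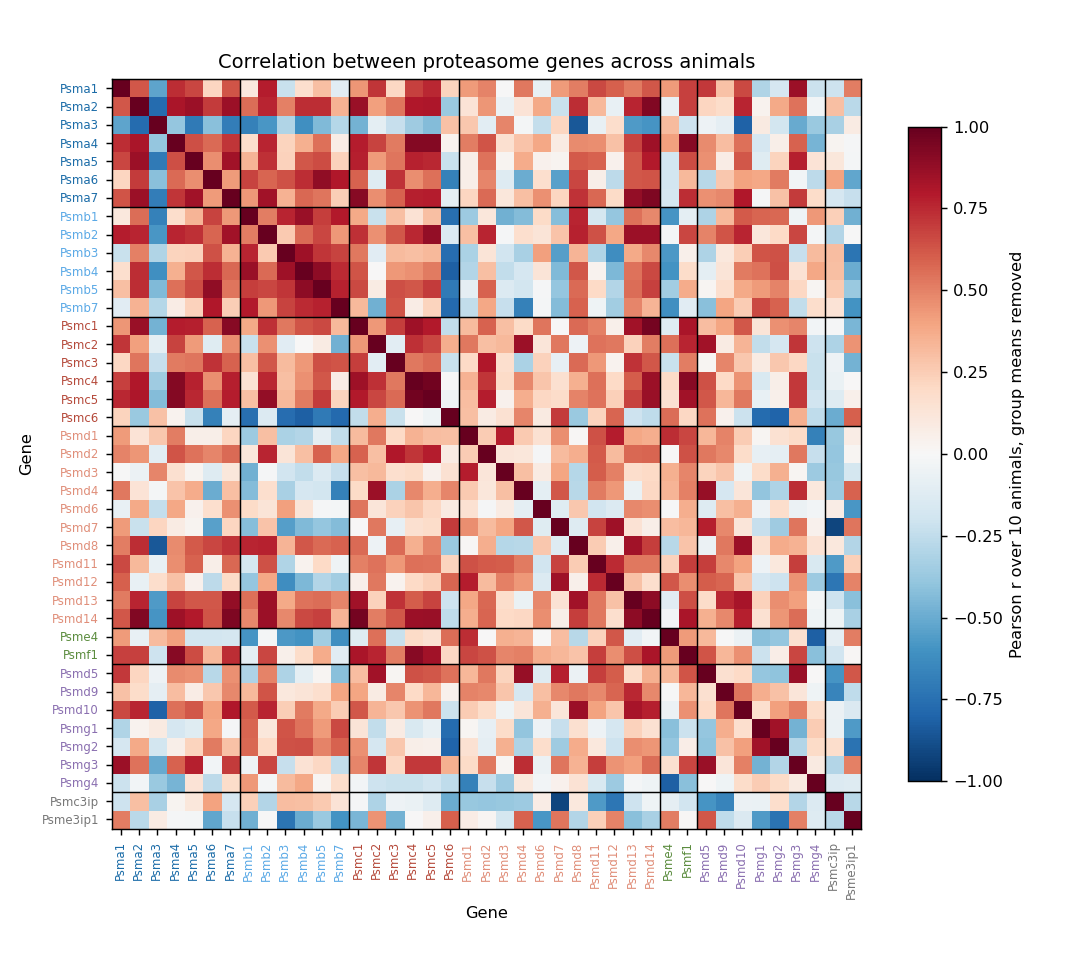
Pearson correlation over 10 animals, group means removed, between all 41 genes, ordered and coloured by role with lines between roles, red above 0 and blue under 0. The core and ATPase blocks are mostly red, with blue bands at Psma3 and Psmc6.

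Control animal 1 stood above the others. It had the highest value of all animals for 20 of 30 core and cap genes and lay above the gene's mean for 29 of 30. Its core and cap genes averaged 0.12 above their 10-animal means on the log2 scale, and the other animals lay between -0.050 and 0.063. In its beta ring the mean was 0.17. Without it the median correlation of core and cap pairs was 0.27, with 69.2% of pairs above 0, and the 8 closest pairs kept correlations of 0.86 to 0.94. Exposed animals 4 and 5 had the lowest cap scaffold, lid and receptor genes, at -0.079 and -0.12, whereas their beta rings stood at 0.0023 and 0.031. The log2 ratio of 3′ to 5′ control probe sets, a sign of RNA quality, was 0.508 in control animal 1 and 0.494 to 0.735 in the others. With that ratio as a covariate, 30 of 30 core and cap genes were lower, with a median of -0.075, beside 64.6% of the genes with a mean above 8.

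**Figure D5:**
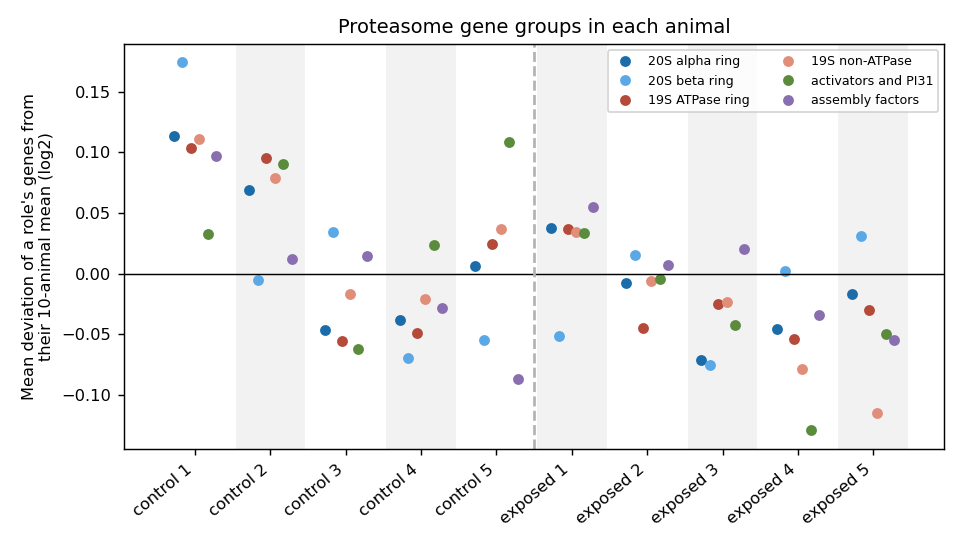
Mean deviation of each role's genes from their 10-animal mean (log2) in each animal, 1 point per role, with a dashed line between control and exposed animals. Control animal 1 has the highest beta ring point, at 0.17, and exposed animal 5 has its other cap genes at -0.12 beside a beta ring at 0.031.

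Other genes of the pathway were taken from 4 lists of 53 entries, 43 of them measured. None passed limma's test, beside 0% of all probe sets, and 2 had an unadjusted p under 0.05, beside 5.46%. Of the 43 genes, 32 were lower in exposed animals, beside 50.9% of all genes and 64.7% of those with a mean above 8. Among subunits and helpers without a Psm name, 8 of 9 were lower, with a median of -0.024. Ecpas, which holds core and cap together, differed by -0.19 ± 0.08 (SE) with a limma adjusted p of 0.879. It read 9.31 to 9.50 in controls and 8.98 to 9.34 in exposed animals, and 3 of its 6 probe sets had the same sign. Zfand5, an activator of the complex, differed by -0.086 (2 of its 4 probe sets had this sign), Pomp, the chaperone of the beta ring, by -0.0090, and Adrm1, a ubiquitin receptor of the cap, by 0.037.

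In the NRF1 route, which controls proteasome genes, 11 of 19 genes were lower, with a median of -0.012, which was 0.014 under quantile normalization, 0.0052 without control animal 3, 0.00098 with the RNA quality covariate and 0.00086 without exposed animal 1. Nfe2l1, which encodes NRF1, read 6.82, 6.75, 7.02, 6.96 and 7.16 in controls and 6.83, 7.21, 7.12, 7.03 and 6.79 in exposed animals. The groups overlapped throughout, with a difference of 0.050 (95% interval -0.16 to 0.26), and 2 of the gene's 3 probe sets had this sign. Vcp, the ATPase that extracts NRF1 from the endoplasmic reticulum, differed by -0.094 and its cofactor Nploc4 by -0.14. Nfya, a subunit of NF-Y, differed by 0.14. All 10 measured genes of ubiquitin supply and activation were lower, with a median of -0.042, led by the ubiquitin ligase Ube3c at -0.14 (unadjusted limma p 0.0383, adjusted p 0.879) and the conjugating enzyme Ube2k at -0.095 (2 of its 4 probe sets had this sign). Ubiquitin shuttle receptors were lower for 3 of 5 genes, with a median of -0.021, which was 0.032 without control animal 5, 0.033 with the RNA quality covariate and 0.0054 under quantile normalization. Ubqln1 differed by -0.060 and the autophagy receptor Sqstm1 by 0.16 (3 of its 4 probe sets had this sign).

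Liver identity and cell make-up were read from marker lists. The 9 hepatocyte markers averaged 13.6 to 13.7 in every animal of both groups. Of these, 7 were lower in exposed animals, with a median difference of -0.0040, beside 64.7% of the genes with a mean above 8. Apob and Tat each differed by -0.14. Macrophage and Kupffer cell markers, of which 10 of 10 were higher in exposed animals by a median of 0.21, averaged 7.96 to 9.19 in controls and 8.30 to 9.25 in exposed animals. Control animal 5 alone averaged 7.96, and the other controls lay at 8.55 to 9.19. Exposed animal 3 averaged 8.30, and the other exposed animals lay at 9.01 to 9.25. These markers were read in the same animals, so their shared direction is not a set of separate observations. Lymphocyte markers were higher for 10 of 12, by a median of 0.097, and averaged 4.99 to 5.32 in controls and 4.99 to 5.38 in exposed animals. The median control mean of these lymphocyte markers was 4.91, dimmer than the median probe set at 5.47. No share for genes that dim is given here. Stellate cell markers were higher for 5 of 9, endothelial markers for 3 of 6, bile duct cell markers for 2 of 5 and erythroid markers for 3 of 4. Over all genes, 50.9% were lower. No marker passed limma's test at an adjusted p of 0.05, beside 0% of all probe sets, and 1 lymphocyte marker had an unadjusted p under 0.05, beside 5.46%. Their part in the differences of the proteasome genes was not tested.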

How the data were processed

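Liver RNA of 5 control and 5 exposed rats was measured on 1 Affymetrix array each. The authors deposited log2 expression values per probe set, which per the submitters' processing notes came from RMA under R 2.8.1. RMA normalizes arrays to one another, so a shift shared by most genes is removed, and values of different probe sets are not comparable as amounts. Array medians lay between 5.43 and 5.49, pairs of arrays correlated at 0.991 or more, and precision is limited by having 10 arrays. After 57 Affymetrix control sets were dropped, 31042 probe sets were tested, and 20826 of them name 1 gene in the platform annotation.

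Groups, taken from the labels, were compared with limma 3.58.1 (lmFit, eBayes, two-sided) in R 4.3.3 with p-values adjusted by Benjamini-Hochberg across every probe set tested. The test was checked on simulated data. Differences are exposed minus control. Pairs of subunits were compared with exact permutation tests (scipy 1.17.1). Roles and lists are described by counts and medians. Genes given in every animal are the catalytic subunits, Psmd4, Psmd14, Psmc2, Psme4 and Psmd10, the 2 of smallest p in each role and the 2 of largest spread among all 41. Named by their difference are genes with probe sets of opposite sign, the 2 of smallest p per list, and Nfe2l1, Vcp, Pomp and Adrm1. The members and lists were chosen with earlier results of these data known. Alternatives were quantile normalization, centring, dropping dim probe sets, a replicate block, array weights, another prior, an RNA quality covariate, the mean of a gene's probe sets and leaving out each array.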

Additional observations from a re-analysis of the deposited data

Results flagged for a closer look

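In 5 of 100 groups of 5 animals (the genes, role means and subunit pairs in each group), 1 animal stood apart from the others, where chance gives about 1 in 20, or 5. Psmb5 read 11.47 in control animal 1 and 11.17 to 11.24 in the other controls. Psma3 read 8.44 in exposed animal 3 and 8.18 to 8.25 in the other exposed animals. Exposed animal 1 stood above the other exposed animals for Psma7 (11.07 against 10.93 to 10.96), Psmf1 (10.16 against 10.03 to 10.07) and Psmg3 (7.55 against 7.35 to 7.38).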

How the results depend on the processing

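Each of 22 named differences was recomputed under up to 18 alternatives, 396 values in all. Of these, 385 kept their sign and their side of limma's threshold, 11 changed sign and 0 passed, and 14 of the 22 never changed sign. Quantile normalization gave 0.0069 for Psmd10. The mean of a gene's probe sets gave 0.052 for Psmb5, 0.0052 for Psmd9 and 25 of 30 core and cap genes lower. Leaving out each animal gave -0.053 to 0.0075 for Psmb4, -0.038 to 0.038 for Psmb5, -0.055 to 0.0097 for Psmb7, -0.084 to 0.0085 for Psmd14, -0.059 to 0.0013 for Psmc2 and -0.0015 to 0.129 for Psmc3ip. It gave -0.029 (without exposed animal 1) to 0.079 for Psmb10 minus Psmb7, with -0.0079 without exposed animal 5, and 0.026 to 0.223 for Psmb8 minus Psmb5, lowest without control animal 1. The median of subunits and helpers without a Psm name ran from -0.064 (without control animal 3) to -0.0073 when leaving out each animal, and was -0.0027 under quantile normalization. Core and cap genes lower in exposed animals numbered 22 (without control animal 1) to 30 of 30 (RNA quality covariate) over all alternatives. Leaving out each animal, their median correlation was 0.27 to 0.41. Over all probe sets limma called 0 to 1, the call coming without exposed animal 1, and 0 proteasome genes. The causes were not tested.

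Replicate numbers did not pair the animals. Same-numbered animals correlated at -0.070 to 0.094 and in 0 of 5 cases best with their own number. With a replicate block limma called 0 probe sets, and 29 of 30 core and cap genes were lower, with a median of -0.044. Signal over background could not be judged from the deposited values.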
